A study of Rattus norvegicus with 6 samples.

Results

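The genes described here are 46 mediators of inflammation and their signalling partners, chosen by name: interleukins and leukemia inhibitory factor (LIF) with their receptors, tumor necrosis factor (TNF) with its receptors, chemokines with their receptors, transforming growth factor beta (TGF-beta) with its receptors, the NF-kB proteins, 2 inflammasome genes and macrophage migration inhibitory factor. Among the 35291 genes of the deposited table, 45 of the 46 were found by their symbol, and Mif had no row under that symbol. The question put to them was whether inflammatory mediators were higher in diabetic than in non-diabetic testis.

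RNA-Seq values from the testes of male Sprague-Dawley rats, an outbred strain, were compared between 3 diabetic and 3 non-diabetic samples. The diabetic animals had been fed a high-fat diet and then injected once with streptozotocin (STZ), a toxin of the insulin-producing beta cells, at 35 mg/kg, and only animals whose blood glucose stayed high counted as diabetic. The non-diabetic animals were injected with citrate buffer, and whether they had received the same diet was not clear from the sources used here. The testes were taken 8 weeks after the injection, and the ages of the animals were not given. The labels number the samples of each group from 1 to 3 without naming the animals, so the p-values measure the spread between these samples only. Expression is given as FPKM, the number of fragments per kilobase of transcript scaled to the size of the library, which allows levels of different genes to be compared per length. The depth in reads is unknown, and the relative depth read from low genes was 0.966 to 1.09 in the diabetic and 0.893 to 1.02 in the non-diabetic samples. The protocol text of the labels mentions an adipose source. In all 6 samples, however, the 10 germ cell markers summed to at least 11060 FPKM, while Adipoq, the adiponectin gene of fat cells, lay between 3.04 and 5.25 FPKM.

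Inflammatory signalling usually runs as a chain. Alarm cytokines such as interleukin-1 and TNF bind receptors that release NF-kB from its inhibitor, NF-kB enters the nucleus, and it switches on further cytokines, chemokines and its own inhibitor. Chemokines attract leukocytes, and TGF-beta restrains immune cells and drives matrix production. The testis is an immune-privileged organ: its interstitial space, between the seminiferous tubules, holds resident macrophages next to the steroid-producing Leydig cells, and Sertoli and germ cells also use several of these factors as local signals.

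None of the mediators was higher in diabetic testis by the test used. Averaged over the 6 samples, 32 of the 45 genes reached 0.5 FPKM, and these were tested with limma on log2(FPKM + 0.1) together with all other genes that passed, 20338 in total. At an unadjusted p-value below 0.05, 0 of the 32 were higher and 5 were lower in the diabetic samples, namely Cxcl9, Cxcl12, Cxcl16, Tnfrsf1a and Tnfrsf1b. The 5 genes are 15.6% of those tested, while over all genes tested 4.99% were lower and 2.47% were higher at the same threshold. The list was chosen with earlier results of these data known, so this comparison and those below of its shares with all genes are descriptive only. By the criterion used in the study, a change of 1 or more on the log2 scale together with an unadjusted p-value below 0.05, 0 of the 32 were called. Among all genes tested, 0.846% were lower and 0.398% were higher by it. The study used a different test, DESeq2, so its thresholds are applied here to the values from limma. With p-values adjusted by the Benjamini-Hochberg method over all genes, limma placed 0 of the 32 below 0.05, where 0.0344% of all genes tested were. The smallest adjusted p-value was 0.279, for Cxcl9.

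The direction of the differences was mostly downward. The log2 fold change was negative for 28 of the 32 genes, or 87.5%, and for 55.6% of all genes tested. Its median was -0.18 over the 32 genes and -0.021 over all genes tested. The 3 diabetic values all lay below the 3 non-diabetic values for 8 of the 32 genes and all lay above them for 0, where over all genes tested 8.42% were lower and 4.56% were higher without overlap. The 8 genes were the 5 named above and Il33, Nfkb1 and Pycard. With 3 samples against 3 an exact permutation test of 1 gene cannot give a p-value below 0.1. One gene, Il33, passed the filter through its non-diabetic mean alone, and without it the count was 7 of 31.

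The precision of the fit limits how large a rise could have gone unseen. For all 32 genes the upper bound of the 95% interval of the single gene lay below a 2-fold rise on the log2(FPKM + 0.1) scale, and for 27 it lay below a 1.5-fold rise. The other 5 were Lif, Il18, Il1r1, Il1rap and Relb. The count of 5 lower genes fell to 3 when non-diabetic replicate 1 or non-diabetic replicate 2 was left out. It was 8 when limma was fitted to protein-coding genes only, of which 6.61% were lower at the same threshold, and Il33, Nfkb1 and Pycard were then added, which leaves 7 without Il33. Of all genes with an unadjusted p-value below 0.05, 66.9% were lower, and under median-ratio scaling between samples 53.0% were, while the listed genes kept the counts of 5 lower and 0 higher.

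**Figure D1:**
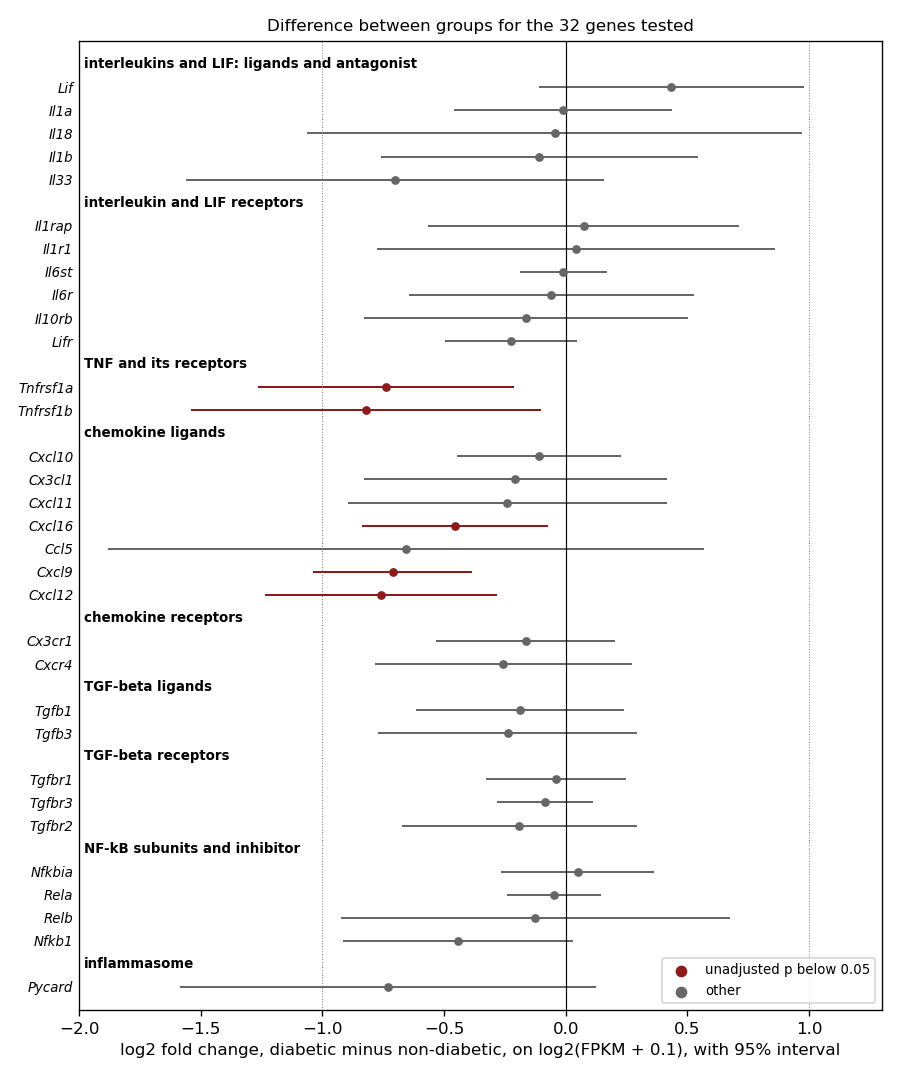
Log2 fold change (diabetic minus non-diabetic, on log2(FPKM + 0.1)) of the 32 genes tested, grouped by role. Points are estimates from limma and lines their 95% intervals, red marks an unadjusted p-value below 0.05, and dotted lines stand at -1 and 1. The 5 red genes all lie left of 0, only 4 points lie right of it, and no interval reaches 1.

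Of the interleukin ligands, Il1a, Il1b and Il18 of the interleukin-1 family were present at low but measurable levels, with groups that overlapped. Il1a, encoding the membrane-associated alarm cytokine interleukin-1 alpha that testicular cells are known to make, was at 1.58, 1.62 and 2.25 FPKM in the diabetic and 1.65, 1.97 and 1.83 FPKM in the non-diabetic samples. The groups overlapped, and the log2 fold change of Il1a was -0.01 (95% interval -0.46 to 0.43, adjusted p = 0.996 from limma). Il1b, the secreted and caspase-activated form, was at 1.06, 0.688 and 0.633 FPKM against 0.738, 0.944 and 0.855 FPKM. One diabetic sample was the highest of all 6 for Il1b and the others were the lowest, and the log2 fold change was -0.11 (95% interval -0.75 to 0.54). Il18, which like Il1b is matured by caspase-1, was at 1.78, 4.69 and 4.66 FPKM against 2.22, 3.84 and 5.06 FPKM. The spread of Il18 within each group exceeded the difference between the means of 3.71 ± 1.67 and 3.71 ± 1.43 FPKM (SD, n = 3 each). Without diabetic replicate 1 its log2 fold change moved from -0.05 to 0.40.

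Il33, an alarmin kept in the nucleus until cells are damaged, was at 0.410, 0.420 and 0.535 FPKM in the diabetic and 0.724, 1.28 and 0.537 FPKM in the non-diabetic samples. The groups touched without overlapping, diabetic replicate 3 and non-diabetic replicate 3 being almost equal, and the log2 fold change of Il33 was -0.70 (95% interval -1.56 to 0.15, adjusted p = 0.752 from limma). It was -0.39 without non-diabetic replicate 2 and -0.32 with a pseudocount of 1. Lif, a cytokine of the interleukin-6 family that acts on germ and stem cells, had the largest positive estimate among the 32 genes tested. Its values were 1.40, 1.16 and 1.64 FPKM against 1.03, 0.817 and 1.19 FPKM. The lowest diabetic sample lay below the highest non-diabetic sample for Lif, and the log2 fold change of 0.43 had a 95% interval of -0.10 to 0.97 (adjusted p = 0.758 from limma).

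Of the 7 receptor genes of these cytokines, 6 were tested and 0 had an unadjusted p-value below 0.05, though the intervals of several were wide. Il6st, encoding gp130, the signal-transducing chain shared by the interleukin-6 family, was the most precise of them: 9.82, 10.6 and 10.2 FPKM against 10.5, 10.1 and 10.1 FPKM. Its log2 fold change was -0.01 with a 95% interval of -0.18 to 0.16. Lifr, which pairs with gp130 to bind LIF, was at 5.58, 6.73 and 6.62 FPKM against 6.68, 7.68 and 7.78 FPKM. The groups overlapped at a single pair of values, and the log2 fold change of Lifr was -0.22 (95% interval -0.49 to 0.04). With the replicate number as a block, its unadjusted p-value from limma was 0.0488. For Il6r, the ligand-binding chain for interleukin-6, Il1r1 and Il1rap, the chains of the interleukin-1 receptor, and Il10rb, a chain of the interleukin-10 receptor, the log2 fold changes were -0.06, 0.04, 0.07 and -0.16, and the groups overlapped for each. The 95% interval ran from -0.77 to 0.86 for Il1r1 and from -0.82 to 0.50 for Il10rb. Non-diabetic replicate 1 was the highest sample for Il1r1, at 1.75 FPKM, and without it the log2 fold change became 0.39.

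Several mediators by which inflammation is commonly judged were at or near 0. Il6 was listed at 0 in all 6 samples. Il10, encoding an anti-inflammatory cytokine, was listed at 0 in 5 samples and at 0.0421 FPKM in diabetic replicate 3. Tnf was listed at 0.128 and 0.124 FPKM in diabetic replicates 1 and 3 and at 0 in the other 4 samples. Tnf was under the filter, and in the fit without a filter its log2 fold change was 0.78 with an unadjusted p-value of 0.0663 from limma, the largest positive estimate of the 44 listed genes in that fit. It rests on the 2 diabetic values above 0 and on the pseudocount. Il1rn, the natural antagonist of interleukin-1, was at 0.0278 FPKM in diabetic replicate 1 and listed at 0 in the other diabetic samples, with 0, 0.0415 and 0.0693 FPKM in the non-diabetic ones. Ccl2, the main attractant of monocytes, was at 0.0680, 0 and 0 FPKM in the diabetic and 0, 0.472 and 0.154 FPKM in the non-diabetic samples. Its receptor Ccr2 was at 0, 0 and 0.183 FPKM against 0.205, 0 and 0.306 FPKM. A value of 0 can be a failed estimate as well as no expression: of 86 ribosomal protein genes, which all cells use, Rpl13a was listed at 0 in every sample.

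The remaining genes under the filter were low in every sample. Nlrp3, the sensor of the best known inflammasome, stayed between 0.0788 and 0.194 FPKM. Cxcl1, an attractant of neutrophils, stayed between 0.206 and 0.327 FPKM, Il10ra between 0.0519 and 0.300 FPKM, Tgfb2 between 0.255 and 0.493 FPKM and Nfkb2 between 0.308 and 0.592 FPKM. The groups overlapped for each of these 5 genes. Without overlap were Ccl3, a macrophage chemokine at 0, 0 and 0.201 FPKM against 0.227, 0.206 and 0.226 FPKM, and Ccr1, its receptor. Ccr1 was at 0.246, 0.253 and 0.238 FPKM in the diabetic and 0.548, 0.588 and 0.450 FPKM in the non-diabetic samples. In the fit without a filter the log2 fold change of Ccr1 was -0.86 with an unadjusted p-value of 0.0135 from limma, and that of Ccl3 was -1.15 with 0.0437, of which neither is among the 5 lower genes counted above. Tnf, at 0.78, went the other way in the same fit. Over all 45 genes, 38 were above 0 in every sample and 7 were listed at 0 in at least 1.

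**Figure D2:**
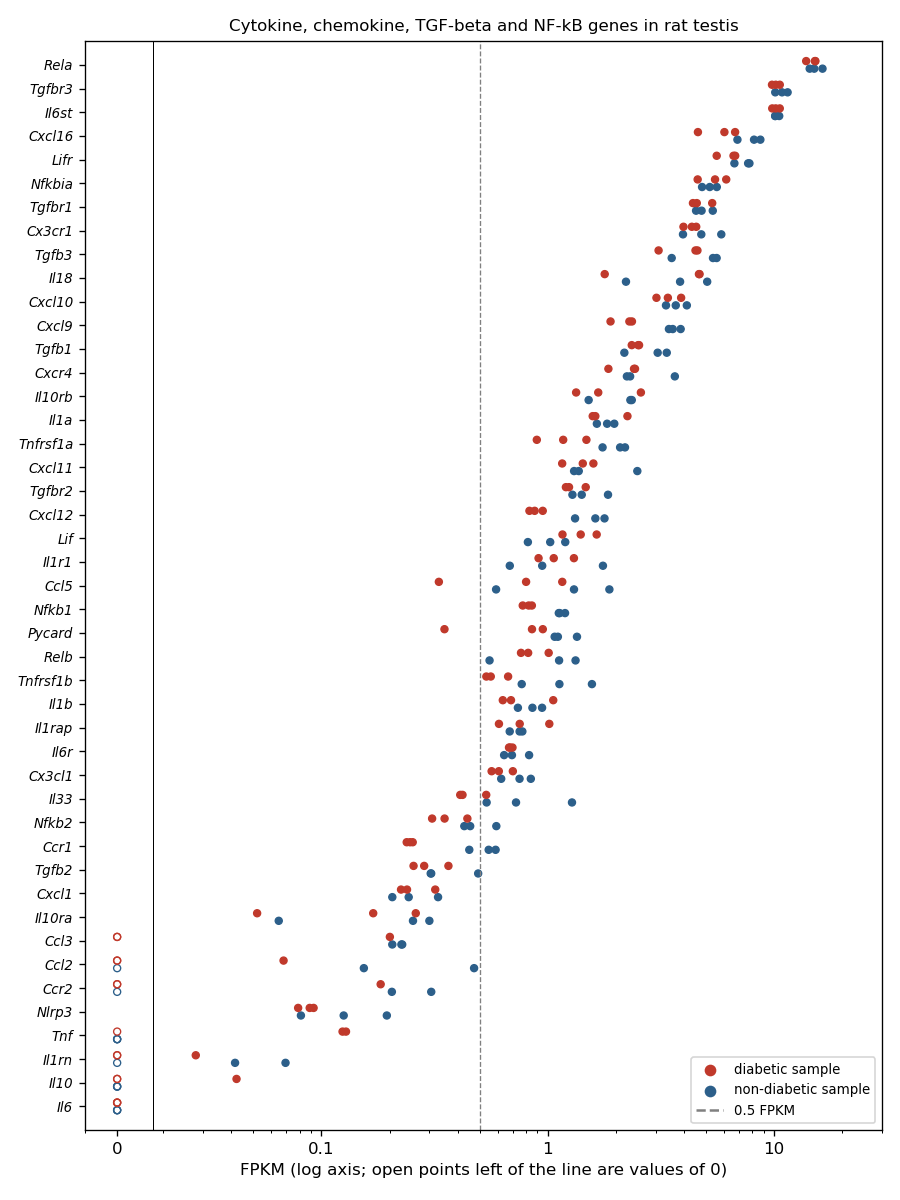
FPKM (log axis) of the 45 genes found, ordered by their mean, with 1 point per sample, red for diabetic and blue for non-diabetic. Open points left of the solid line are values of 0, several of which lie on top of each other, and the dashed line stands at 0.5 FPKM. Rela is the highest at a mean of 15.0 FPKM, 32 genes lie around or right of the dashed line, and Il6 is at 0 in all 6 samples.

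Although TNF mRNA was near 0, both of its receptors were present and both were lower in the diabetic samples. Tnfrsf1a (ENSRNOG00000031312), encoding the broadly expressed receptor that carries a death domain, was at 1.48, 0.895 and 1.17 FPKM in the diabetic and 2.09, 2.19 and 1.75 FPKM in the non-diabetic samples. Every diabetic value of Tnfrsf1a lay below every non-diabetic one, and the log2 fold change was -0.74 (standard error 0.22, unadjusted p = 0.0120 and adjusted p = 0.519 from limma). Tnfrsf1b (ENSRNOG00000016575), encoding the receptor found mainly on leukocytes and endothelial cells, was at 0.535, 0.668 and 0.560 FPKM against 1.13, 1.57 and 0.767 FPKM. The non-diabetic samples spread widely but did not overlap the diabetic ones, and the log2 fold change of Tnfrsf1b was -0.82 (standard error 0.30, unadjusted p = 0.0300 and adjusted p = 0.629 from limma). The unadjusted p-value of Tnfrsf1a stayed below 0.05 in all 17 alternative fits. That of Tnfrsf1b was at or above 0.05 without diabetic replicate 1 or 3 and without non-diabetic replicate 1 or 2, up to 0.113. With a pseudocount of 1 in place of 0.1 the log2 fold changes were -0.47 and -0.42. In whole tissue, fewer cells of a type and less RNA per cell cannot be told apart.

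Of the 10 chemokine ligands listed, 7 were tested, all with negative estimates, and 3 had an unadjusted p-value below 0.05. Over all genes tested, 55.6% had a negative estimate and 4.99% were lower at this threshold. Cxcl9, Cxcl10 and Cxcl11 encode the interferon-induced ligands of the receptor CXCR3, which attract activated T cells, and their genes are neighbours on chromosome 14. Cxcl12 encodes a largely constitutive chemokine that retains stem and progenitor cells in their niche. The bases upstream of these 4 genes are shown because 2 of them, Cxcl9 and Cxcl12, are among the 5 lower genes and the others are their relatives, and those of Il6 and Nfkbia because 1 was not detected and the other is the classic feedback target of NF-kB. The 250 bases before each annotated start come from RefSeq (GRCr8), at chr14:16006916-16007165 for Cxcl9, chr14:15988816-15989065 for Cxcl10, chr14:15973478-15973727 for Cxcl11 and chr4:152060531-152060780 for Cxcl12, all on the + strand. For Il6 they lie at chr4:5894576-5894825 and for Nfkbia at chr6:78597073-78597322, on the - strand, and are given 5′ to 3′ along the gene. Capitals mark motif matches on either strand. The motifs are the kappaB consensus bound by NF-kB (GGGRNNYYCC), the GAS element of STAT proteins (TTCNNNGAA) and an interferon regulatory factor core (AANNGAAA). Here N is any base, R is A or G, and Y is C or T.
Cxcl9: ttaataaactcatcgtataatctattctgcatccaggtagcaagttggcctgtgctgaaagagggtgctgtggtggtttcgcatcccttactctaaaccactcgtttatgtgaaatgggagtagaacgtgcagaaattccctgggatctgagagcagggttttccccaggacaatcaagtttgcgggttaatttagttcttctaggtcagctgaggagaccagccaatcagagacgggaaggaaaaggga
Cxcl10: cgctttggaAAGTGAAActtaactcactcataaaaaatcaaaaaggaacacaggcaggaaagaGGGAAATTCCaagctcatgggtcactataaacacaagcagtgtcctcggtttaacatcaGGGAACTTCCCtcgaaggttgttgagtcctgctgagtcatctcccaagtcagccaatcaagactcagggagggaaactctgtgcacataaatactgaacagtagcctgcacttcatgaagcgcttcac
Cxcl11: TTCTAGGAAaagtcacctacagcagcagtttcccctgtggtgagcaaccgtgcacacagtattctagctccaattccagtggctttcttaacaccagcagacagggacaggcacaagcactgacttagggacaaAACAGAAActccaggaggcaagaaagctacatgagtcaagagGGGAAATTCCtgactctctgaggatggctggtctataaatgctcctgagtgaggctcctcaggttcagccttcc
Cxcl12: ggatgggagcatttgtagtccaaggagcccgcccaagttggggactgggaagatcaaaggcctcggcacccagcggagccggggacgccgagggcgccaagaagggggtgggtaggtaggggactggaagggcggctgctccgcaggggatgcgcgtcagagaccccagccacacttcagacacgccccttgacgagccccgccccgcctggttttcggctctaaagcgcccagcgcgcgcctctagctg
Il6: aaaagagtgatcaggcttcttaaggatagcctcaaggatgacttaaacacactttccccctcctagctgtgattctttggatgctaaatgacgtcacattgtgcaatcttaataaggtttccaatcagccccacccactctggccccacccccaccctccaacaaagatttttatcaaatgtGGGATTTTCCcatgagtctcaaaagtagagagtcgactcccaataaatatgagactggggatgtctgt
Nfkbia: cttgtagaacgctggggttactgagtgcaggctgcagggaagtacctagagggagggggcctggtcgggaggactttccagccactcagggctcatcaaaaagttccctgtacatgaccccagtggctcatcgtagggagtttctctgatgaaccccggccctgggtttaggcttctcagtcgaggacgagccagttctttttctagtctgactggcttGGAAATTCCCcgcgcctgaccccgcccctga

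The kappaB consensus was matched in Cxcl10 at 187, 128 and 127 bases before the start, the last pair overlapping, in Cxcl11 at 74, in Il6 at 68 and in Nfkbia at 31. The window of Cxcl11 also held a GAS match at 250 bases and an interferon regulatory factor core at 116 bases, and that of Cxcl10 held such a core at 241 bases. No match to these letters was found in the windows of Cxcl9 and Cxcl12, which were both lower in the diabetic samples. A search for set letters in 250 bases cannot show that a site is absent, and a link between motifs and expression was not tested. Cxcl16 and Tnfrsf1b, which were also lower, did have a match to the interferon regulatory factor core in their windows, not printed here. Over the 42 windows available for 40 of the listed genes, the kappaB consensus was matched in 23.8%, against 6.33% of all 33469 promoter windows. The GAS element was matched in 4.76% of the 42 against 7.67% of all, and the interferon regulatory factor core in 28.6% against 23.3%. The listed genes with a kappaB match were Cxcl1, Cxcl10, Cxcl11, Il1r1, Il1rap, Il6, Nfkb2, Nfkbia and Tgfbr1, of which Cxcl1, Il6 and Nfkb2 were under the filter and the other 6 had unadjusted p-values of at least 0.05.

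Cxcl9 (ENSRNOG00000022242) was at 2.36, 1.89 and 2.29 FPKM in the diabetic and 3.87, 3.43 and 3.57 FPKM in the non-diabetic samples. The groups were far apart for their spread, and the log2 fold change of Cxcl9 was -0.71 (standard error 0.14, unadjusted p = 0.00119 and adjusted p = 0.279 from limma). Its neighbour Cxcl10 was at 3.39, 3.88 and 3.02 FPKM against 3.33, 3.68 and 4.12 FPKM. The groups overlapped, with a log2 fold change of -0.11 for Cxcl10 (95% interval -0.44 to 0.22). Cxcl11 was at 1.16, 1.59 and 1.43 FPKM against 1.31, 1.37 and 2.49 FPKM. Non-diabetic replicate 3 stood above the other samples for Cxcl11, and the log2 fold change of -0.24 (95% interval -0.89 to 0.41) became 0.04 without it.

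The ratio of Cxcl9 to Cxcl10 within a sample, taken after these values were seen, was 0.694, 0.488 and 0.759 in the diabetic and 1.16, 0.933 and 0.866 in the non-diabetic samples. The groups did not overlap (exact permutation test, two-sided, p = 0.1, the smallest possible). The ratio of Cxcl9 to Cxcl11 overlapped between the groups (exact permutation test, p = 0.3).

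Cxcl12 (ENSRNOG00000013589), whose product signals through CXCR4, was at 0.950, 0.830 and 0.875 FPKM in the diabetic and 1.62, 1.78 and 1.32 FPKM in the non-diabetic samples. The diabetic samples lay close together and well below the others, with a log2 fold change for Cxcl12 of -0.76 (standard error 0.20, unadjusted p = 0.00658 and adjusted p = 0.451 from limma). Cxcl16 (ENSRNOG00000026647), a membrane-bound chemokine and scavenger receptor, was the highest chemokine, at 6.03, 4.61 and 6.73 FPKM against 8.16, 8.70 and 6.89 FPKM. Diabetic replicate 3 and non-diabetic replicate 3 almost met, and the log2 fold change of Cxcl16 was -0.45 (standard error 0.16, unadjusted p = 0.0245 and adjusted p = 0.610 from limma). For Cxcl9 and Cxcl12 the unadjusted p-value was below 0.05 in all 17 alternative fits. For Cxcl16 it was at or above 0.05 without diabetic replicate 2, where the log2 fold change was -0.30, and without non-diabetic replicate 1 or 2, up to 0.0812. With a pseudocount of 1 the log2 fold change of Cxcl12 was -0.45.

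Ccl5, an attractant of T cells and monocytes, varied widely within both groups. The diabetic samples held 1.16, 0.802 and 0.330 FPKM and the non-diabetic samples 1.87, 1.31 and 0.591 FPKM. The log2 fold change of Ccl5 was -0.66 with a 95% interval of -1.88 to 0.56 (adjusted p = 0.855 from limma). Without diabetic replicate 3 it was -0.22. Cx3cl1, encoding the membrane-bound fractalkine, was at 0.565, 0.701 and 0.608 FPKM against 0.842, 0.623 and 0.750 FPKM and overlapped between the groups.

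The 2 chemokine receptors that were tested overlapped between the groups. Cx3cr1, the fractalkine receptor of monocytes and macrophages, was at 3.98, 4.53 and 4.33 FPKM in the diabetic and 3.96, 4.77 and 5.85 FPKM in the non-diabetic samples, a log2 fold change of -0.16 (95% interval -0.53 to 0.20). For Cx3cr1 this moved to -0.30 without non-diabetic replicate 1 and to -0.024 without non-diabetic replicate 3. Cxcr4, the receptor of CXCL12, was at 2.43, 1.85 and 2.41 FPKM against 2.24, 3.64 and 2.31 FPKM. Non-diabetic replicate 2 was the highest sample for Cxcr4, and the log2 fold change moved from -0.26 to -0.04 without it. The lower estimate of the ligand Cxcl12 thus stood beside a receptor whose groups were not separated, and the difference between the 2 genes was not tested.

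**Figure D3:**
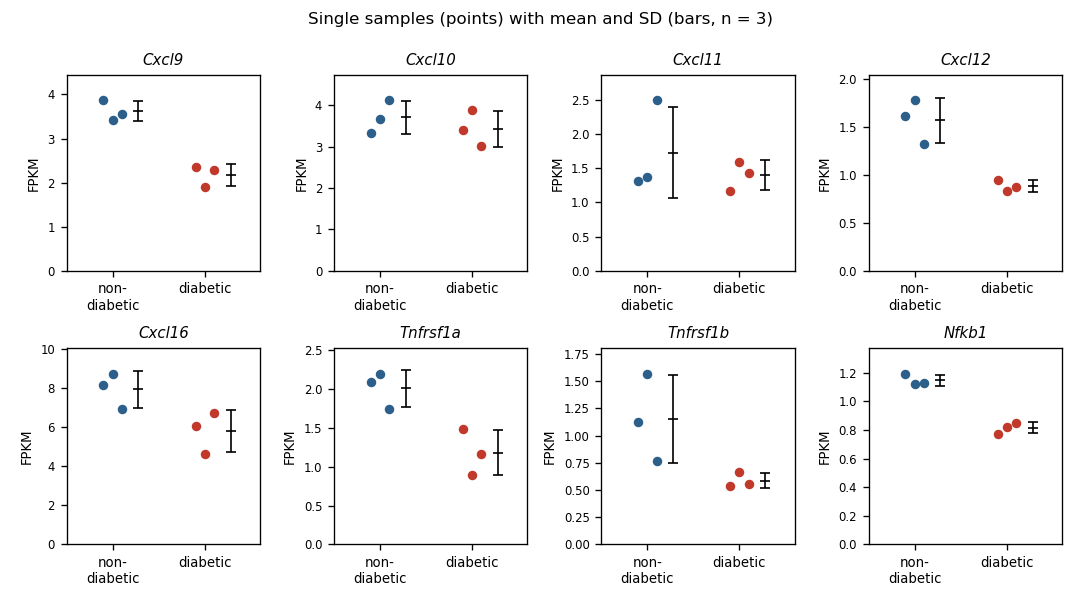
FPKM (linear axis from 0) of 8 of the listed genes, with 1 point per sample and bars giving the mean ± SD (n = 3). Diabetic and non-diabetic points are separate for Cxcl9, Cxcl12, Cxcl16, Tnfrsf1a, Tnfrsf1b and Nfkb1 and overlap for Cxcl10 and Cxcl11.

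Of the 6 TGF-beta ligand and receptor genes, 5 were tested and 0 were called in either direction, while Tgfb2 was under the filter. Tgfb1, encoding the main immune-regulating form, was at 2.51, 2.53 and 2.35 FPKM in the diabetic and 3.06, 3.36 and 2.18 FPKM in the non-diabetic samples. The lowest sample for Tgfb1 was a non-diabetic one, and the log2 fold change was -0.19 (95% interval -0.61 to 0.23, adjusted p = 0.888 from limma). Without that sample, non-diabetic replicate 3, it was -0.37 with an unadjusted p-value of 0.0382 from limma. Tgfb3, the form known for its effect on the junctions between Sertoli cells, was at 4.50, 3.09 and 4.59 FPKM against 5.58, 5.37 and 3.53 FPKM. The groups overlapped for Tgfb3, with a log2 fold change of -0.24 (95% interval -0.77 to 0.29). It was -0.44 without non-diabetic replicate 3, -0.058 without diabetic replicate 2, -0.12 without non-diabetic replicate 1 and -0.15 without non-diabetic replicate 2.

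Of the TGF-beta receptor genes, Tgfbr3, which encodes the co-receptor betaglycan that also binds inhibin, was the highest, at 10.6, 10.2 and 9.79 FPKM against 11.5, 10.8 and 10.1 FPKM. The log2 fold change of Tgfbr3 was -0.08 with a 95% interval of -0.28 to 0.11. Tgfbr1 and Tgfbr2, the kinase chains of the receptor, were at 4.76 ± 0.505 and 1.31 ± 0.145 FPKM in the diabetic and 4.89 ± 0.429 and 1.51 ± 0.294 FPKM in the non-diabetic samples (SD, n = 3 each). Their log2 fold changes were -0.04 and -0.19, and the groups overlapped for both. Leaving out 1 sample at a time moved the log2 fold change of Tgfbr2 between -0.29, without non-diabetic replicate 3, and -0.048, without non-diabetic replicate 2.

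Of the NF-kB genes, 4 were tested and 0 were called. Rela, encoding the p65 subunit that activates transcription, was the most abundant of the listed genes, at 15.2, 15.2 and 13.9 FPKM in the diabetic and 16.4, 15.1 and 14.4 FPKM in the non-diabetic samples. For Rela the log2 fold change was -0.05 with a 95% interval of -0.24 to 0.14. Nfkb1, encoding the p105 precursor of the p50 subunit that pairs with p65, was at 0.775, 0.823 and 0.850 FPKM against 1.19, 1.12 and 1.13 FPKM. Its groups were tight and did not overlap, and the log2 fold change of Nfkb1 was -0.44 (95% interval -0.91 to 0.02, unadjusted p = 0.0599 and adjusted p = 0.690 from limma). Without the mean-variance trend in the fit, the unadjusted p-value of Nfkb1 from limma was 0.0014, among protein-coding genes only it was 0.0253, and with the replicate block it was 0.116. Leaving out 1 sample at a time gave values up to 0.136, of which 0 of 6 were below 0.05. With a pseudocount of 1 the log2 fold change of Nfkb1 was -0.24. The ratio of Nfkb1 to Rela, taken after their values were seen, was 0.0509, 0.0543 and 0.0613 against 0.0728, 0.0743 and 0.0785 (exact permutation test, two-sided, p = 0.1, the smallest possible).

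Nfkbia, encoding the inhibitor IkB-alpha that NF-kB itself induces, was at 4.60, 5.49 and 6.15 FPKM in the diabetic and 4.81, 5.58 and 5.20 FPKM in the non-diabetic samples. The groups overlapped throughout, and the log2 fold change of Nfkbia was 0.05 (95% interval -0.26 to 0.36). Relb, a subunit of the alternative NF-kB pathway, was at 0.762, 1.01 and 0.819 FPKM against 1.33, 1.12 and 0.553 FPKM, with a log2 fold change of -0.12 (95% interval -0.92 to 0.67). Non-diabetic replicate 3 was the lowest sample for Relb, and without it the log2 fold change was -0.46.

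Pycard, encoding the inflammasome adaptor ASC, was at 0.350, 0.852 and 0.951 FPKM in the diabetic and 1.11, 1.35 and 1.07 FPKM in the non-diabetic samples. The groups did not overlap, diabetic replicate 1 was the lowest, and the log2 fold change of Pycard was -0.73 (95% interval -1.58 to 0.12, adjusted p = 0.734 from limma). Without that sample it was -0.34 or, without diabetic replicate 3, -0.96.

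Mif itself gave no value, as no row carries its symbol. Of 4 rows that the table describes as macrophage migration inhibitory factor or its pseudogenes, LOC103694877 was the highest, at 22.2, 27.6 and 23.6 FPKM in the diabetic and 25.2, 27.0 and 27.0 FPKM in the non-diabetic samples. The groups overlapped, and reads of near-identical copies could have been assigned to any of these rows. Ddt, the relative of Mif encoding D-dopachrome tautomerase, was at 32.2 ± 2.21 against 33.0 ± 2.62 FPKM (SD, n = 3 each). Cd74, encoding the MHC class II invariant chain, which is also the receptor of this factor, was at 3.56, 4.29 and 3.30 FPKM against 8.57, 9.32 and 6.18 FPKM. The log2 fold change of Cd74 was -1.08 (standard error 0.18, unadjusted p = 0.000466 and adjusted p = 0.190 from limma), and its unadjusted p-value was below 0.05 in all 17 alternative fits.

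Other genes of the same pathways went both ways. Of the other interleukin ligands and receptors, 28 were tested, 3 were higher and 1 was lower at an unadjusted p-value below 0.05. Over all genes tested, 2.47% were higher and 4.99% were lower at this threshold, shares that also stand beside the counts of the lists that follow. Il11, a cytokine that also signals through gp130, was at 9.18, 9.86 and 8.42 FPKM in the diabetic and 6.47, 7.00 and 5.88 FPKM in the non-diabetic samples, without overlap. For Il11 the log2 fold change was 0.50 (standard error 0.10, unadjusted p = 0.00183 and adjusted p = 0.324 from limma). Il24, an interleukin-10 relative, and Il20rb, a chain of its receptors, had log2 fold changes of 1.26 and 0.39, and Il2rg, the common gamma chain of lymphocyte receptors, one of -0.39. Il24 passed the criterion of the study, at 1.04, 2.47 and 1.05 FPKM against 1.04, 0.502 and 0.256 FPKM, with overlap. For Il24 and Il20rb the unadjusted p-value was at or above 0.05 without replicate 2 or 3 of either group, and for Il2rg without diabetic replicate 1 or 3 or non-diabetic replicate 2 or 3. This was also so for Il24 without the mean-variance trend and for Il20rb with the replicate block.

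Of the other chemokines and their receptors, 14 were tested, 2 were higher and 0 were lower, with a median log2 fold change of 0.10 beside -0.45 for the 7 chemokine ligands of the set. Ccl17, a ligand of CCR4, was at 3.22, 2.46 and 2.37 FPKM against 1.35, 1.59 and 1.46 FPKM. Cxcr5, a receptor of B cells, was at 3.16, 2.95 and 2.77 FPKM against 2.43, 1.86 and 1.51 FPKM. Both were separate between the groups, with log2 fold changes of 0.82 for Ccl17 and 0.61 for Cxcr5 (adjusted p = 0.329 and 0.540 from limma), and both kept an unadjusted p-value below 0.05 in all 17 alternative fits. The highest of this list, Ccl11, an attractant of eosinophils, had a log2 fold change of -0.72 and was not called. Of the other TNF superfamily genes, 6 were tested and 0 were called.

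Genes known to be induced by TGF-beta held the largest differences of these lists. Of 8 tested, 4 were lower and 1 was higher at an unadjusted p-value below 0.05, and 3 of the lower ones passed the criterion of the study. Over all genes tested, 4.99% were lower at this threshold and 0.846% by that criterion. Col3a1, encoding the collagen of loose connective tissue, was at 1.11, 0.887 and 1.38 FPKM in the diabetic and 4.46, 3.70 and 3.39 FPKM in the non-diabetic samples. Its log2 fold change was -1.70 (standard error 0.20, unadjusted p = 5.10e-05 and adjusted p = 0.0648 from limma). Timp1, an inhibitor of matrix metalloproteinases, was at 2.44, 2.14 and 2.53 FPKM against 5.01, 6.53 and 4.68 FPKM (adjusted p = 0.129 from limma). Col1a1 and Tgfbi, a matrix adhesion protein, had log2 fold changes of -1.09 and -0.60, and the unadjusted p-value of Tgfbi was at or above 0.05 without diabetic replicate 1 or 3 or non-diabetic replicate 1 or 2. Ctgf, encoding connective tissue growth factor, went the other way, at 2.54, 2.98 and 3.43 FPKM against 1.99, 1.96 and 1.29 FPKM (log2 fold change 0.75, adjusted p = 0.487 from limma). Of 25 carriers, transducers and regulators of TGF-beta tested, 0 were higher and 2 were lower, the carrier Ltbp3 at a log2 fold change of -0.93 and the binding proteoglycan Dcn at -0.73. Ltbp3 passed the filter through its non-diabetic mean alone, and its unadjusted p-value was at or above 0.05 without non-diabetic replicate 3. Without non-diabetic replicate 2, which was the highest for Dcn at 10.4 FPKM, its log2 fold change was -0.47.

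Of 29 genes of the NF-kB activation cascade tested, 1 was lower, the kinase gene Irak1 at a log2 fold change of -0.39, and 0 were higher. Over all genes tested, 4.99% were lower at the same unadjusted threshold, so a single call in this list is no sign of a change in the cascade. Among 14 genes known as NF-kB targets, 3 were lower and 0 were higher. Vcam1, encoding the adhesion molecule that holds leukocytes, was at 3.05, 1.23 and 3.98 FPKM in the diabetic and 6.58, 8.01 and 6.84 FPKM in the non-diabetic samples. For Vcam1 the groups did not overlap, and the log2 fold change was -1.49 (standard error 0.38, unadjusted p = 0.00568 and adjusted p = 0.436 from limma). Sod2, encoding the mitochondrial superoxide dismutase, and Irf1, an interferon-responsive transcription factor, had log2 fold changes of -0.26 and -0.56. Tnfaip3, encoding the NF-kB inhibitor A20, was at 1.39 ± 0.172 against 1.39 ± 0.153 FPKM (SD, n = 3 each). The unadjusted p-value was at or above 0.05 without replicate 2 or 3 of either group for Irak1, without diabetic replicate 1 or 2 or non-diabetic replicate 2 or 3 for Sod2, and without diabetic replicate 1 or 3 or non-diabetic replicate 1 or 2 for Irf1. For Irak1 and Irf1 this was also so under median-ratio scaling and with the replicate block, and for Irf1 among genes averaging 1 FPKM or more.

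Of the other inflammasome and pyroptosis genes, 8 were tested and 1 was higher. Txnip, encoding a glucose-responsive inhibitor of thioredoxin, was at 36.5, 38.6 and 34.5 FPKM in the diabetic and 29.5, 31.3 and 32.0 FPKM in the non-diabetic samples, without overlap (log2 fold change 0.24, adjusted p = 0.492 from limma). Casp1, encoding the protease that matures interleukin-1 beta and interleukin-18, was at 3.56 ± 0.385 against 4.28 ± 0.131 FPKM (SD, n = 3 each), with a log2 fold change of -0.26 (95% interval -0.54 to 0.02). Of 18 JAK, STAT and SOCS genes tested, Socs5, a feedback inhibitor, was higher, at a log2 fold change of 0.18, and 0 were lower. Over all genes tested, 2.47% were higher and 4.99% were lower at the same unadjusted threshold. The unadjusted p-value of Socs5 was at or above 0.05 without diabetic replicate 1 or 2 or non-diabetic replicate 2 or 3, and without the mean-variance trend. The median log2 fold changes were -0.014 for the other interleukin genes, -0.17 for the other TNF superfamily genes, 0.018 for the TGF-beta carriers and transducers, -0.063 for the NF-kB cascade, -0.0077 for the NF-kB targets, 0.037 for the inflammasome genes and -0.025 for the JAK, STAT and SOCS genes, beside -0.021 over all genes tested. None of the genes of these lists had an adjusted p-value below 0.05 from limma.

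Markers of the cells that make or receive these signals moved in the same samples. Of 12 macrophage markers tested, 6 were lower and 0 were higher at an unadjusted p-value below 0.05, with a median log2 fold change of -0.78. Over all genes tested, 4.99% were lower and 2.47% were higher at this threshold. Cd68 and Tyrobp passed the filter through their non-diabetic means alone, and without them 4 of 10 were lower. Laptm5, a lysosomal protein of leukocytes, was at 0.584, 0.561 and 0.584 FPKM in the diabetic and 1.44, 1.54 and 1.51 FPKM in the non-diabetic samples. Csf1r, the receptor on which macrophages depend, was at 1.11, 1.32 and 1.38 FPKM against 2.22, 2.54 and 2.06 FPKM. Cd68, C1qa, Tyrobp and Ptprc were the others. Of these, Cd68 and Ptprc had an unadjusted p-value at or above 0.05 in 4 of the 6 fits that left out 1 sample. The groups overlapped for Cd163, Adgre1, Mrc1, C1qb and C1qc, with log2 fold changes of -0.23, -0.13, -0.06, -0.88 and -0.74. Mrc1 was at 20.8 ± 2.54 against 21.6 ± 0.404 FPKM (SD, n = 3 each). The 13 macrophage markers found, of which none was at 0 in any sample, summed to 135 to 143 FPKM in the diabetic and 114 to 158 FPKM in the non-diabetic samples. Aif1 alone made up 101 to 109 and 73.9 to 114 FPKM of these sums. Aif1 was the only marker of the 13 with the higher mean in the diabetic samples, and its groups overlapped (log2 fold change 0.29). Leaving Aif1 out, a choice made after seeing the values, therefore leaves only markers with the lower mean. The other markers summed to 30.2 to 36.8 FPKM in the diabetic and 39.7 to 44.4 FPKM in the non-diabetic samples.

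T and natural killer cell markers differed in direction between Lck and the rest. Of 6 tested, Lck was higher, at 5.21, 7.18 and 8.00 FPKM against 3.51, 2.73 and 2.58 FPKM, and Cd4 and Cd8a were lower, with log2 fold changes of -0.57 and -0.43. Leaving out 1 sample took the unadjusted p-value to 0.05 or above in 4 of 6 fits for Cd4 and in all 6 for Cd8a. The 8 markers found summed to 9.56 to 12.4 FPKM in the diabetic and 8.96 to 10.5 FPKM in the non-diabetic samples. Lck was the only marker of the 8 with the higher mean in the diabetic samples. Leaving it out, a choice made after seeing the values, therefore leaves only markers with the lower mean. The other 7 summed to 4.35 to 4.70 FPKM against 6.38 to 7.81 FPKM. Cd2, Cd3e, Cd8a and Nkg7 were lower without overlap, where over all genes tested 8.42% were. The groups overlapped for Cd3d, Cd3g and Cd4, and the log2 fold changes of Cd3d and Cd3g were -0.49 and -0.08. Cd2 and Nkg7 were under the filter, and Cd3e passed it through its non-diabetic mean alone. Of 6 Leydig cell markers tested, Cyp11a1, Cyp17a1, Star, Insl3 and Lhcgr were lower and 0 were higher. Cyp17a1 had an adjusted p-value of 0.0415 from limma, and Star lost its call without non-diabetic replicate 2. Nr5a1 overlapped between the groups, with a log2 fold change of -0.016. The 6 markers summed to 30.7 to 58.2 FPKM against 84.4 to 119 FPKM. The part that macrophage, lymphocyte and Leydig cell content had in the lower values of Cxcl9, Cxcl12, Cxcl16, Tnfrsf1a, Tnfrsf1b, Vcam1 and Cd74 was not tested.

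**Figure D4:**
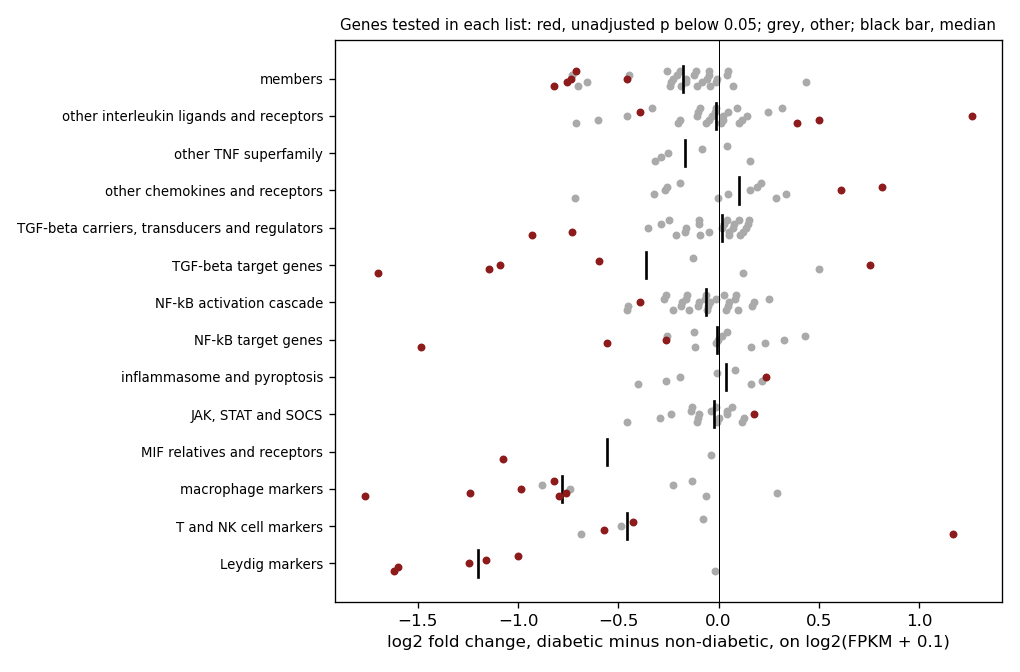
Log2 fold change (diabetic minus non-diabetic, on log2(FPKM + 0.1)) of every gene tested in the set, labelled members, in each of the other pathway lists and in 3 lists of cell type markers, with 1 point per gene. Red marks an unadjusted p-value below 0.05 and the black bar the median of the list, which is -0.18 for the 32 genes of the set, -0.36 for the TGF-beta target genes, -0.78 for the macrophage markers and -1.20 for the Leydig cell markers.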

How the data were processed

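RNA-Seq of testis was analysed for 3 diabetic and 3 non-diabetic samples, grouped by their labels. The authors inspected read quality with FastQC, screened for rRNA with BWA, mapped to the rat genome with STAR and built transcripts with StringTie. The deposited table gives FPKM for each gene, calculated by the authors. Genome build and versions are not given in the sources used here. Reads cannot be told from FPKM, so the depth is unknown and precision rests on 3 samples a group.

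Values were transformed to log2(FPKM + 0.1), genes averaging under 0.5 FPKM were left out, and the remaining 20338 were compared by limma 3.58.1 (lmFit, then eBayes with trend, R 4.3.3). Tests were two-sided and p-values were adjusted by the Benjamini-Hochberg method over all of these genes. The pseudocount understates changes of low genes. Single values were compared by exact permutation tests. The fit was tested on simulated data. The listed genes, the other lists, the rule for naming genes and the 17 alternatives were chosen with earlier results of these data known. The rule names every gene of the set and, of other lists, those with an unadjusted p-value below 0.05 and up to 5 of the most abundant. Casp1, Tnfaip3, Mrc1, the other uncalled macrophage and T cell markers and the ratios were chosen after their values were seen. Markers under the filter are named outside the rule. Promoter windows were read from RefSeq (GRCr8) and searched in Python 3.11.15, and no window was found there for Ccl2, Ccl3, Ccl5, Il10, Lif and Relb.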

Additional observations from a re-analysis of the deposited data

How the results depend on the processing

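The count of 5 listed genes with an unadjusted p-value below 0.05 was 8 among protein-coding genes only and ranged from 3 to 7 when each sample was left out in turn. Under the other alternatives it lay between 4 and 7, and 0 were higher under any of the 17. The count past the criterion of the study was 0, was 1 without a filter (Ccl3), and ranged from 0 to 1 when each sample was left out (Tnfrsf1b, without non-diabetic replicate 3). The count with an adjusted p-value below 0.05 was 0 under all 17, and the median log2 fold change stayed between -0.21 and -0.10. Same-numbered samples of the groups had correlations of their deviations of 0.106, 0.0153 and 0.0979. Samples with different numbers had -0.126 to 0.0318, so 0.106 and 0.0979 were the highest. The labels do not give the numbers as pairs, and the main fit did not take them as such. With the replicate block 7 genes had an unadjusted p-value below 0.05 from limma, Lifr and Ccl5 being added.

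Estimates near 0 changed sign. Under median-ratio scaling Il1a was at 0.016 and Il6st at 0.020. When each sample was left out, the log2 fold change ranged from -0.17 to 0.075 for Il1a, -0.31 to 0.020 for Il1b, -0.37 to 0.40 for Il18, -0.24 to 0.39 for Il1r1, -0.10 to 0.23 for Il1rap, -0.13 to 0.031 for Il6r and -0.037 to 0.018 for Il6st. It ranged from -0.41 to 0.037 for Il10rb, -0.40 to 0.042 for Cxcl11, -0.12 to 0.026 for Tgfbr1, -0.046 to 0.16 for Nfkbia, -0.091 to 0.0028 for Rela and -0.46 to 0.10 for Relb. The causes of these changes were not tested.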

Other observations

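Markers of further cell types gave few calls at an unadjusted p-value below 0.05 from limma. Of those tested, 0 of 2 B cell, 0 of 4 endothelial, 0 of 5 peritubular and smooth muscle, 0 of 7 Sertoli cell, 0 of 10 germ cell and 0 of 2 blood markers were called, and Cfd was the 1 lower gene among 3 adipocyte markers. Kit, a receptor shared by mast cells, germ cells and Leydig cells, was the 1 neutrophil and mast cell marker tested and was lower, with an unadjusted p-value at or above 0.05 in 5 of the 6 fits that left out 1 sample. The other neutrophil and mast cell markers found were below the filter and differed among themselves. S100a8, a neutrophil protein gene, was listed at 0 in every diabetic sample, while its non-diabetic values were 0.0746, 0.299 and 0.249 FPKM. For S100a9, Mpo, Elane, Cpa3 and Tpsb2 the groups overlapped. Mpo, Cpa3 and Tpsb2 had the higher mean in the diabetic samples.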
